A study of Mus musculus with 6 samples.

Results

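The epidermal differentiation complex is a cluster of genes that keratinocytes switch on as they leave the basal layer and build the cornified barrier. Its transcripts were followed in epidermis of C57BL/6 mice aged 6 to 8 weeks. Members were taken by name: every gene symbol that starts with Sprr, with Lce and a digit or with S100a and a digit, together with Flg, Flg2, Hrnr, Rptn, Tchh, Tchhl1, Crnn, Ivl and Lor. That gave 62 of the 47455 symbols in the tables, none of them chosen for its level. The set was, however, chosen with earlier results of these data known. The wounded group had 8 punch wounds of 3 mm in the back skin, and its tissue was taken 2 h afterwards. The non-wounded group is intact tissue of the same mice, whose time of collection the labels do not set apart. Each of the 3 mice gave 1 library per group, so there were 3 libraries in each group. The epidermis had been lifted off with trypsin, and no transgene, deletion or drug was listed for either group.

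By coordinates of GRCm38 (mm10) in the GENCODE annotation, 61 of the 62 members lie on chromosome 3 in a stretch of 3053610 bases, chr3:90511034-93564643. The remaining one, the processed pseudogene S100a11-ps, lies on chromosome 12 and matched by name alone. Most members encode building blocks of the cornified envelope, a shell of cross-linked protein that replaces the plasma membrane of dying keratinocytes. Involucrin is laid down early as a scaffold, loricrin makes up much of the finished shell, and small proline-rich (Sprr) and late cornified envelope (Lce) proteins are joined to it by transglutaminases. Filaggrin and its relatives carry an S100 domain fused to long repeats and organise keratin inside the corneocyte, while the S100A proteins are small calcium sensors.

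The libraries held between 20746185 and 26814845 estimated counts. Levels are given as CPM, counts scaled to a common library total by the TMM method, or as TPM, which also divides by transcript length, and values of a group follow the order mouse 1, 2, 3. Basal and suprabasal keratinocyte genes were abundant, as the label epidermis implies: summed basal markers ranged over 15293 to 16571 CPM in wounded libraries and 14104 to 17043 CPM in non-wounded libraries, and suprabasal markers over 28902 to 34664 CPM in wounded libraries and 29648 to 36676 CPM in non-wounded libraries. Of 6 basal markers 3 were called higher and 1 lower in wounded epidermis (Itga6 1.52, Krt15 -0.98 and Krt14 0.53 on the log2 scale), and of 7 suprabasal markers Sbsn was called higher (0.54) and Krt2 lower (-1.18), with Krt1 at -0.50 and not called. Over all genes 24% were called higher and 24.5% lower, which is the background for every marker count given here. The TMM factors were 0.887 to 0.898 in wounded and 1.12 in each of the non-wounded libraries. Against TMM, the median log2 fold change of all genes was shifted by -0.32 with totals alone, -0.15 with upper quartiles and -0.21 with log2(TPM + 1), so small changes are stated relative to TMM.

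After wounding the complex split by subfamily. The small proline-rich genes Sprr1a, Sprr1b and Sprr2d to Sprr2j-ps and the late envelope genes Lce3c to Lce3e rose several-fold, the constitutive Lce1 group fell modestly, and Ivl, Lor, Flg, Flg2 and Hrnr were not called. Of the 62 members, 49 had enough counts to be tested, and the other 13 had at most 49 counts over all 6 libraries. In edgeR's quasi-likelihood test over all genes, 21 of the 49 were called higher in wounded epidermis at an adjusted p under 0.05, where 24% of all 16079 tested genes were. A further 11 were called lower, against 24.5% of all genes, so 32 members were called in either direction (65.3%, against 48.5% of all genes). The share of members called lower is near that of all genes. Members that rose often rose far: 17 were called with a change of at least 2-fold (8.72% of all genes) and 13 with at least 4-fold (2.18% of all genes), while only Sprr2a3 fell by at least 2-fold (9.74% of all genes). All 32 called members moved the same way in all 3 mice, which is no separate support because the calls came from the same libraries. For 35 of the 49 tested members the groups did not overlap, which held for 58.5% of all genes. The median log2 fold change was 0.29 over the 49 members and -0.03 over all genes. By library totals alone the split was 16 higher and 16 lower (all genes 13.5% and 41.6%), and with log2(TPM + 1) it was 17 and 16 (all genes 11.8% and 34.6%). Of the 21 higher and 11 lower members, 16 and 11 kept their call by totals alone. Upper-quartile factors gave 19 and 13 (all genes 18.5% and 31.7%), DESeq2 gave 22 and 12 (all genes 24.8% and 23.5%), and mouse as a blocking term gave 22 and 12 (all genes 26.5% and 27.6%). Bulk libraries cannot tell fewer cells of a type from less RNA per cell, which applies to every level given here.

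**Figure D1:**
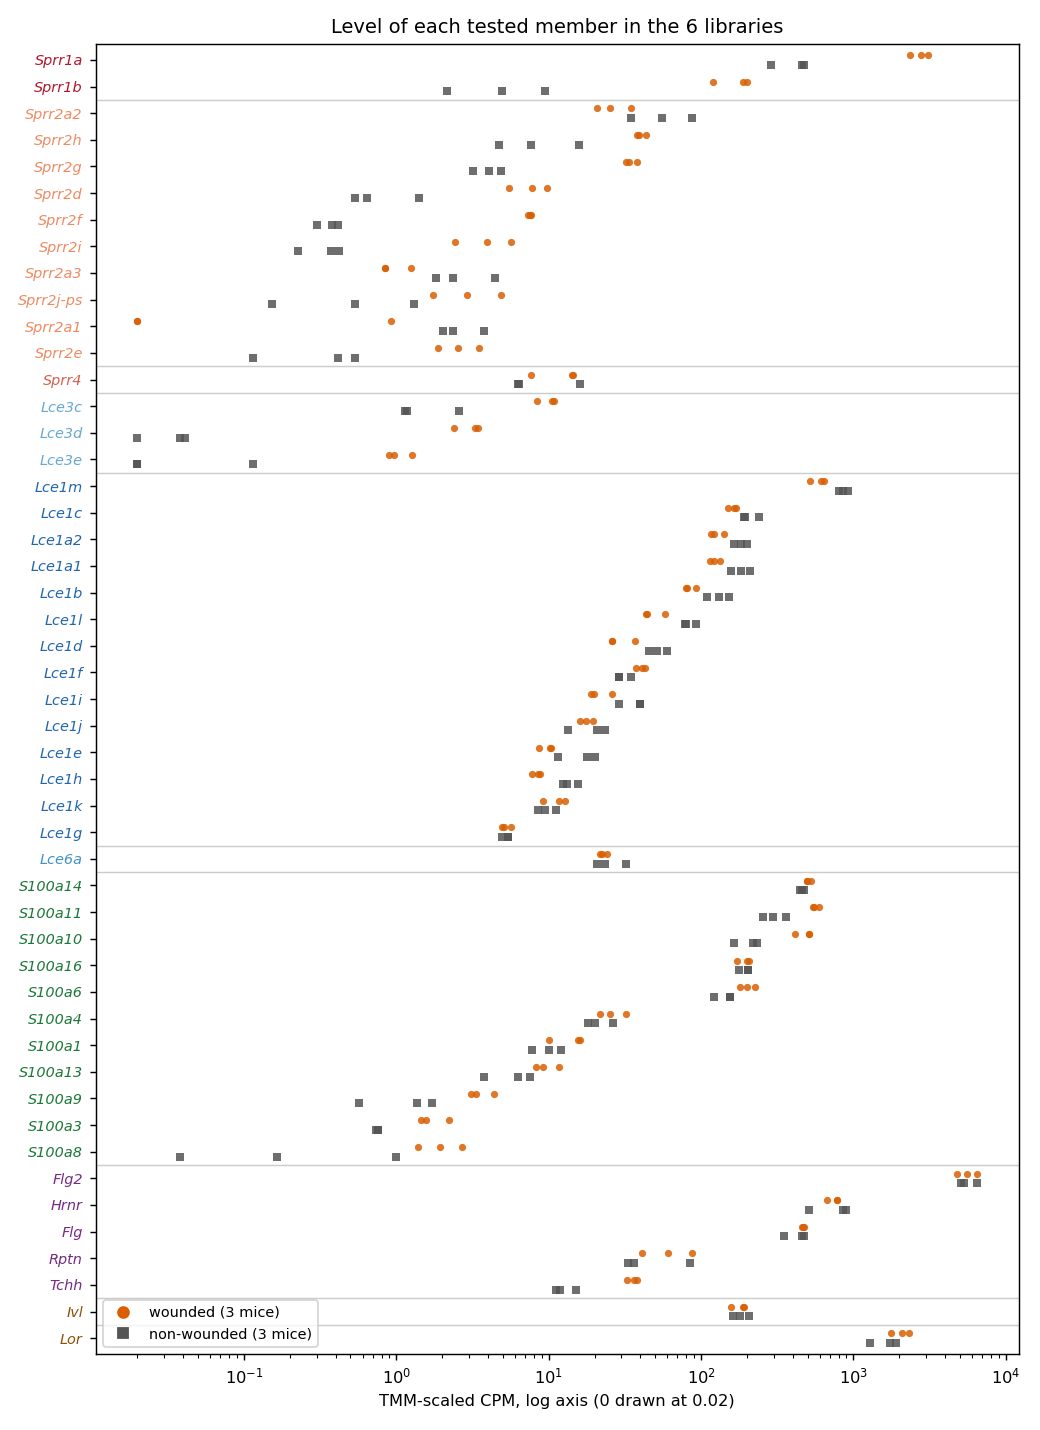
Level of each of the 49 tested members in every library, as TMM-scaled CPM on a log axis, with values of 0 drawn at 0.02; orange circles are the 3 wounded and grey squares the 3 non-wounded libraries, and horizontal lines part the subfamilies. The circles of Sprr1a, Sprr1b, Sprr2d to Sprr2j-ps and Lce3c to Lce3e lie to the right of all their squares, those of the Sprr2a genes and most Lce1 genes to the left, and those of Flg2, Hrnr, Flg and Ivl among them.

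Sprr1a and Sprr1b encode cross-bridging proteins of the envelope that are best known from stressed and fast renewing epithelia. Sprr1a had 2358, 3082 and 2795 CPM in wounded epidermis, against 288, 460.2 and 477 CPM in non-wounded epidermis. Sprr1b had 119, 201 and 188 CPM in wounded epidermis, against 2.16, 4.95 and 9.45 CPM in non-wounded epidermis. Every wounded library lay above every non-wounded one for both genes, and Sprr1b was low in intact epidermis. Sprr1a rose 6.72-fold (log2 fold change 2.75, SE 0.20, adjusted p = 7.17e-06, edgeR) and Sprr1b rose 30.9-fold (log2 fold change 4.95, SE 0.61, adjusted p = 0.00285). Summed over the pair, the change was 7.04-fold (log2 fold change 2.82, SE 0.21, adjusted p = 9.15e-06), with log2 ratios of 3.09, 2.82 and 2.62 in mice 1, 2 and 3. Per length, Sprr1a averaged 4628 ± 606 TPM in wounded epidermis and 874 ± 217 TPM in non-wounded epidermis (SD, n = 3 each), the highest TPM of any member in wounded epidermis. It was followed there by S100a11 (1845 TPM), Lor (1330.3 TPM) and Flg2 (1117 TPM). In non-wounded epidermis Lce1m (1700.1 TPM), Flg2 (1612 TPM), Lor (1351 TPM) and S100a11 (1268 TPM) led. Sprr1a and Sprr1b share no 31-base stretch with another annotated gene, so their counts do not rest on how reads of copies were divided.

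The sequence upstream of the starts of Sprr1a and Sprr1b is printed as a description. AP-1, the Fos and Jun transcription factors, binds the letters TGANTCA and is known to act on the human relatives of these genes. Whether it had a part in their rise here was not tested. The windows are those of RefSeq on GRCm38.p6 and run from 250 bases before to 50 bases after the start, 5′ to 3′ on the gene's strand, with capitals for TGANTCA and for the TATA letters TATAAA. Sprr1a (chr3:92485832-92486131, minus strand) holds the AP-1 letters at -146 and -116 from the start, and Sprr1b (chr3:92438730-92439029, minus strand) at -111.
Sprr1a: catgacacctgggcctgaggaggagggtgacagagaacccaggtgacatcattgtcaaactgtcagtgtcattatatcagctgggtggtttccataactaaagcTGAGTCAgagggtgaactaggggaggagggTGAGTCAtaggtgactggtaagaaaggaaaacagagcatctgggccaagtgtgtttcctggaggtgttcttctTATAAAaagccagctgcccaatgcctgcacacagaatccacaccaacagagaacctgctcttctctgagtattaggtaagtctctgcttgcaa
Sprr1b: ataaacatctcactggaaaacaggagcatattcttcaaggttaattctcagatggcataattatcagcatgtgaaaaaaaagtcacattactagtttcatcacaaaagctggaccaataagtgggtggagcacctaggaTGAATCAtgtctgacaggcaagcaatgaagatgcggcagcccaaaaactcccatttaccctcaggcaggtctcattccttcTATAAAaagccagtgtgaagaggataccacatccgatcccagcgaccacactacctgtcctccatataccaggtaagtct

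The Sprr2 genes encode shorter relatives of Sprr1 and form the largest small proline-rich group, with 13 members. Outside the Sprr2a copies, all 7 tested members rose, where 24% of all genes were called higher. Sprr2h had 38.9, 38.1 and 43.2 CPM in wounded epidermis, against 4.701, 7.62 and 15.9 CPM in non-wounded epidermis. Sprr2g had 32.2, 37.8 and 33.4 CPM in wounded epidermis, against 3.18, 4.04 and 4.89 CPM in non-wounded epidermis. Sprr2d had 5.53, 9.76 and 7.71 CPM in wounded epidermis, against 0.645, 0.533 and 1.398 CPM in non-wounded epidermis. None of these 3 overlapped between groups, although the intact tissue of mouse 3 was the highest non-wounded library each time. Sprr2f had 7.495, 7.32 and 7.66 CPM in wounded epidermis, against 0.303, 0.381 and 0.411 CPM in non-wounded epidermis. Sprr2i had 2.44, 5.68 and 3.94 CPM in wounded epidermis, against 0.227, 0.419 and 0.3699 CPM in non-wounded epidermis. Sprr2e had 1.87, 2.52 and 3.504 CPM in wounded epidermis, against 0.114, 0.533 and 0.411 CPM in non-wounded epidermis. Sprr2f varied least among wounded libraries, and all 3 genes were under 1 CPM in intact tissue. Sprr2j-ps had 1.73, 2.903 and 4.85 CPM in wounded epidermis, against 0.152, 0.533 and 1.32 CPM in non-wounded epidermis. It carries a pseudogene name, but GENCODE lists it as protein coding and lists Sprr2g as a polymorphic pseudogene. In edgeR the log2 fold changes were 4.34 for Sprr2f (SE 0.28, adjusted p = 3.54e-07), 3.55 for Sprr2i (SE 0.42, adjusted p = 3.50e-05), 3.16 for Sprr2d (SE 0.37, adjusted p = 3.17e-05) and 3.10 for Sprr2g (SE 0.17, adjusted p = 1.28e-07). They were 2.88 for Sprr2e (SE 0.50, adjusted p = 5.79e-04), 2.25 for Sprr2j-ps (SE 0.64, adjusted p = 0.0176) and 2.09 for Sprr2h (SE 0.44, adjusted p = 0.0117). The call of Sprr2h was lost without the wounded tissue of mouse 3 (2.03, adjusted p = 0.0550003) and with no filter on low counts (adjusted p = 0.0538). That of Sprr2j-ps was lost without the intact tissue of mouse 2 (adjusted p = 0.07403) or the wounded tissue of mouse 3 (adjusted p = 0.0622).

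A total of 3 Sprr2 members outside the Sprr2a copies were too low to test. Sprr2k summed to 20 counts over the wounded and 0 over the non-wounded libraries, which is at least 2.69-fold higher when the non-wounded libraries are set to a floor of 3 counts each. Sprr2b had no count in wounded tissue and 2 in intact tissue, and Sprr2c-ps had none in any. Floors cover counting error only.

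The Sprr2a copies were lower in wounded epidermis. Sprr2a2, the highest Sprr2 gene of intact epidermis by TPM, had 20.7, 34.4 and 25.1 CPM in wounded epidermis, against 34.9, 87.1 and 55.5 CPM in non-wounded epidermis. Sprr2a3 had 0.843, 0.842 and 1.24 CPM in wounded epidermis, against 1.82, 4.46 and 2.34 CPM in non-wounded epidermis. Sprr2a1 had 0, 0 and 0.916 CPM in wounded epidermis, against 2.35, 3.77 and 2.01 CPM in non-wounded epidermis. All 3 copies were lower in wounded tissue in all 3 mice, with groups that barely cleared each other for Sprr2a2. Only Sprr2a3 was called (log2 fold change -1.56, SE 0.40, adjusted p = 0.00663, edgeR). Its call was lost without the intact tissue of mouse 2 (-1.10, adjusted p = 0.0535). Sprr2a2 missed the threshold (log2 fold change -1.15, SE 0.39, adjusted p = 0.0568) and passed it in 7 of 14 alternatives: with mouse as a blocking term (log2 fold change -1.09, adjusted p = 5.12e-06), library totals alone (adjusted p = 0.0216), upper-quartile factors (adjusted p = 0.0384), DESeq2 (adjusted p = 0.02104), log2(TPM + 1) (adjusted p = 0.007004), log2(TPM + 0.1) (adjusted p = 0.00693) and without the intact tissue of mouse 1 (adjusted p = 0.00572). Sprr2a1 summed to 17 counts over the wounded and 210 over the non-wounded libraries and was not called (adjusted p = 0.0546), but it was called lower with library totals alone (adjusted p = 0.0364), upper-quartile factors (adjusted p = 0.0429) and log2(TPM + 1) (adjusted p = 0.00309). Between 73.6% and 97.8% of the 31-base stretches of these copies occur in another gene, and exons of Sprr2a1 and Sprr2a2 overlap on the same strand, so the split of reads among them is uncertain.

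A sum does not depend on that split. Summed Sprr2a had 21.5, 35.3 and 27.2 CPM in wounded epidermis, against 39.05, 95.4 and 59.8 CPM in non-wounded epidermis, and it fell (log2 fold change -1.21, SE 0.37, adjusted p = 0.0437, edgeR). That call was lost without the wounded tissue of mouse 1, 2 or 3 (adjusted p = 0.148, 0.0522 and 0.161), without the intact tissue of mouse 3 (adjusted p = 0.0782) and with no filter (adjusted p = 0.139). With mouse as a blocking term it was -1.15 (adjusted p = 2.39e-06). The other Sprr2 genes together had 90.5, 104 and 105 CPM in wounded epidermis, against 9.33, 14.1 and 24.7 CPM in non-wounded epidermis. They rose 6.23-fold (log2 fold change 2.64, SE 0.36, adjusted p = 0.00202). Summed over all 13 genes the opposite movements partly cancelled, and the sum was not called (log2 fold change 0.66, SE 0.30, adjusted p = 0.117). It was called with mouse as a blocking term (log2 fold change 0.73, adjusted p = 0.0102) and without the intact tissue of mouse 1 (0.39, adjusted p = 0.0356) or mouse 2 (0.94, adjusted p = 0.0161). This division of Sprr2 was made after the values were seen.

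The windows upstream of the Sprr2 genes are shown for the 7 genes that hold the AP-1 letters there, of which Sprr2b and Sprr2k had too few counts to test and the other 5 rose. The full window of Sprr2d (chr3:92338890-92339189, plus strand) is followed by 41-base stretches around the AP-1 letters of the other 6 genes, all on the plus strand of RefSeq's GRCm38.p6, with capitals as before. They lie at chr3:92316493-92316533 for Sprr2b, chr3:92351933-92351973 for Sprr2e, chr3:92364973-92365013 for Sprr2f, chr3:92385470-92385510 for Sprr2h, chr3:92407781-92407821 for Sprr2i and chr3:92432369-92432409 for Sprr2k, with the first letter of TGAGTCA between -198 and -193 from the start. Sprr2k also holds TGACTCA, at -182.
Sprr2d: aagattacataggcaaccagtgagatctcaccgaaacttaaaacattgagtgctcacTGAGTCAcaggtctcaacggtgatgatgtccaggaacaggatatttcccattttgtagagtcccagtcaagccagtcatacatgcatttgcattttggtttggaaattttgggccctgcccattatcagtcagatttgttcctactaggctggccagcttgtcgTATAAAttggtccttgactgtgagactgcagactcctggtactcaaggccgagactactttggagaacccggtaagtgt
Sprr2b: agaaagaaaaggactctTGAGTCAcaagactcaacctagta
Sprr2e: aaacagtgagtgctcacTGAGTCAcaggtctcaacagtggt
Sprr2f: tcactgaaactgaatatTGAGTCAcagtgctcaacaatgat
Sprr2h: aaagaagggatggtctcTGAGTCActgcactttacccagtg
Sprr2i: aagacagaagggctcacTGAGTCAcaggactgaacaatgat
Sprr2k: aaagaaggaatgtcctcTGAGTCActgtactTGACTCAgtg

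RefSeq windows of 300 bases were matched for 54 of the 62 members. TGANTCA, searched on both strands, was in 17 of them (31.5%) and in 7.91% of the 27025 windows of all genes. By subfamily it was in both Sprr1 windows, 7 of 10 Sprr2 windows, 5 of 7 windows of the fused S100 genes, 1 of 11 S100A windows, none of 13 Lce1 windows and none of 6 Lce3 windows. By call it was in 8 of 17 windows of members called higher, in none of 11 called lower and in 5 of 16 not called, among which were Ivl, Lor, Flg and Flg2. Of the 11 called lower 10 are Lce1 genes, which are related copies and not independent windows. The 8 called higher are Sprr1a, Sprr1b, Sprr2d, Sprr2e, Sprr2f, Sprr2h, Sprr2i and S100a11. All but S100a11 are likewise related genes and not independent windows. No window was matched for Sprr2g, Sprr2j-ps, Lce1f and S100a10, which were also called higher. The letters TATAAA were in 42.6% of member windows and 14.1% of all windows. Of the other letters searched, CCACCC (KLF factors) was in 31.5% of member windows and 30.97% of all windows, TTCNNNGAA (STAT factors) in 7.41% of member windows and 8.37% of all windows and AACCNGTT (grainyhead-like factors) in 3.704% of member windows and 1.96% of all windows. By call CCACCC was in 4 of 17 windows called higher, none of 11 called lower and 7 of 16 not called. AACCNGTT was also in none of the 11 called lower, while TATAAA and TTCNNNGAA were each in 2 of them. GGGNNTTCC (NF-kB) and the heat shock element were in no member window, and in 5.68% and 0.533% of all windows. None of the 3 Sprr2a windows held TGANTCA. Aligned over their length, Sprr2a windows were 49.2% to 53.3% identical to those of the other Sprr2 genes, which were 61.9% to 89.1% identical among themselves. The windows are not in register, however. Those of Sprr2a1 and Sprr2a2 end in a stretch that in Sprr2b lies just before its TATAAA letters at -29. The percentages are therefore of whole windows and do not compare matched positions. GENCODE also lists a Sprr2a3 transcript that starts nearer its coding exon, and the bases before that start were not read. A match of letters is a description of the sequence and shows no binding. Only fixed strings were searched, so sites spelled otherwise or of another length would be missed. The lack of a match to the NF-kB string therefore does not show that member windows hold no NF-kB site.

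Sprr3, a relative found mainly in moist epithelia such as the oesophagus, summed to 10 counts over the wounded and 0 over the non-wounded libraries, at least 1.34-fold higher against the floor of 3 counts per library. Those 10 counts came from mice 1 and 2. Sprr4 had 14.2, 14.4 and 7.601 CPM in wounded epidermis, against 6.37, 16.1 and 6.25 CPM in non-wounded epidermis. The groups overlapped, the intact tissue of mouse 2 being the highest of the 6, and Sprr4 was not called (log2 fold change 0.34, SE 0.44, adjusted p = 0.572, edgeR). Without that library it was called higher (0.93, adjusted p = 0.0241).

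The late cornified envelope genes fell into groups that moved in opposite directions. Lce3 genes, whose human counterparts are known for their rise after barrier disruption and in psoriasis, were barely detected in intact epidermis. Lce3c had 10.5, 8.37 and 10.9 CPM in wounded epidermis, against 1.14, 1.18 and 2.59 CPM in non-wounded epidermis. Lce3d had 2.39, 3.28 and 3.45 CPM in wounded and 0, 0.0381 and 0.0411 CPM in non-wounded epidermis. Lce3e had 0.8901, 1.26 and 0.9704 CPM in wounded and 0, 0.114 and 0 CPM in non-wounded epidermis. All 3 genes were present in each wounded library, and only Lce3c was present in each non-wounded one. Lce3c rose 6.08-fold (log2 fold change 2.60, SE 0.31, adjusted p = 3.58e-05, edgeR). Lce3d summed to 193 counts over the wounded and 2 over the non-wounded libraries, a ratio of 117 with a 95% counting interval of 31.9 to 970.1, and it was called (adjusted p = 4.27e-06). Lce3e had 67 and 3 counts, a ratio of 26.997 (8.85 to 134), and was called (adjusted p = 7.35e-04). All 3 non-wounded counts of Lce3e came from mouse 2, and without that library the fitted log2 fold change was 7.58, against 4.57 with it. The other 3 Lce3 genes were not tested: Lce3f had 17 counts in wounded and 9 in intact tissue, Lce3a had 2 and 5, and Lce3b had 1 and 0. Between 26.7% and 60.3% of 31-base stretches of Lce3 genes occur in another gene, most often another Lce3 gene. Summed Lce3 had 13.96, 13.3 and 15.7 CPM in wounded epidermis, against 1.18, 1.52 and 2.96 CPM in non-wounded epidermis, and it rose 7.61-fold (log2 fold change 2.93, SE 0.29, adjusted p = 1.02e-05).

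Lce1 genes, expressed constitutively in intact skin, made up the largest late envelope group with 14 members, all tested. Of these 10 fell, 1 rose and 3 were not called, where 24.5% of all genes were called lower and 24% higher. By totals alone 10 were called lower and 0 higher (all genes 41.6% and 13.5%). Lce1m, the highest of them by TPM, had 643, 613 and 517 CPM in wounded epidermis, against 921, 851 and 806 CPM in non-wounded epidermis. Lce1c had 169.9, 164 and 149 CPM in wounded epidermis, against 191, 242 and 194 CPM in non-wounded epidermis. Lce1a1 had 133, 114 and 122 CPM in wounded epidermis, against 183, 209.8 and 158 CPM in non-wounded epidermis. The wounded libraries lay below every non-wounded one in all 3 cases, by less than the distance seen for Sprr1 or Lce3. Lce1a2 had 141, 121 and 116 CPM in wounded and 183, 199 and 164 CPM in non-wounded libraries. Lce1b had 92.3, 81.2 and 79.9 CPM in wounded and 132, 152 and 109 CPM in non-wounded libraries. Lce1l had 58.2, 44.1 and 43.3 CPM in wounded and 79.9, 92.4 and 78.7 CPM in non-wounded libraries. These also did not overlap. Lce1d had 36.96, 25.9 and 25.9 CPM in wounded and 51.2, 59.99 and 45.4 CPM in non-wounded libraries. Lce1i had 25.9, 19.8 and 19.1 CPM in wounded and 39.9, 39.6 and 28.8 CPM in non-wounded libraries. Lce1e had 10.2, 8.67 and 10.4 CPM in wounded and 17.7, 19.997 and 11.5 CPM in non-wounded libraries. The gap was narrowest for Lce1e, whose intact tissue of mouse 3 came close to the wounded libraries. Lce1h had 8.48, 8.79 and 7.71 CPM in wounded and 12.5, 15.5 and 13.2 CPM in non-wounded libraries. In edgeR the 10 log2 fold changes ran between -0.82 for Lce1d (SE 0.16, adjusted p = 0.00111) and -0.38 for Lce1c (SE 0.11, adjusted p = 0.01301). Lce1m was at -0.54 (SE 0.11, adjusted p = 0.00144), Lce1l at -0.79, Lce1e at -0.75, Lce1i at -0.74, Lce1h at -0.72, Lce1b at -0.63, Lce1a1 at -0.58 and Lce1a2 at -0.53. Without the intact tissue of mouse 2 the calls of Lce1c (-0.26, adjusted p = 0.0618) and Lce1e (-0.59, adjusted p = 0.05203) were lost.

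The rise within the group was that of Lce1f, which had 41.2, 43.1 and 37.6 CPM in wounded epidermis, against 28.9, 34.4 and 28.9 CPM in non-wounded epidermis. Its change was small (log2 fold change 0.40, SE 0.11, adjusted p = 0.0119, edgeR), and it was not called with library totals alone (log2 fold change 0.08), upper-quartile factors (0.26) or log2(TPM + 1) (0.06), nor without the wounded tissue of mouse 2 (0.35, adjusted p = 0.0647). Lce1g, Lce1j and Lce1k were not called, with log2 fold changes of -0.00, -0.11 and 0.20. Summed Lce1 had 1397, 1275 and 1160.4 CPM in wounded epidermis, against 1876, 1953 and 1665 CPM in non-wounded epidermis, 0.697 times the non-wounded level (log2 fold change -0.52, SE 0.11, adjusted p = 0.001798), and the fall was larger with library totals alone (-0.84). Between 0.926% and 58.8% of 31-base stretches of Lce1 genes occur elsewhere, least for Lce1m, so the fall of Lce1m is the one that depends least on how reads of copies were divided. Lce6a, a lone member of its own group, had 24.03, 21.7 and 22.5 CPM in wounded epidermis, against 23.4, 31.995 and 20.6 CPM in non-wounded epidermis and was not called (log2 fold change -0.16, SE 0.16, adjusted p = 0.438). It was called lower by library totals alone (-0.48, adjusted p = 0.0206).

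Windows upstream of Lce3d (chr3:92957140-92957439, plus strand) and Lce1m (chr3:93019012-93019311, minus strand), from RefSeq's GRCm38.p6, are shown for the late envelope genes that rose and fell. Neither holds TGANTCA on either strand, and Lce1m holds TATAAA, in capitals, at -29 from the start.
Lce3d: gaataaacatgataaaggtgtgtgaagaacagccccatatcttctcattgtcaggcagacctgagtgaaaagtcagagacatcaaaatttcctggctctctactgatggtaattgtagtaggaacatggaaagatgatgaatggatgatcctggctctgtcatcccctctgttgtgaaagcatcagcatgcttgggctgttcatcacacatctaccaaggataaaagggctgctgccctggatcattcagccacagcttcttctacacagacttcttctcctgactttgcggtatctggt
Lce1m: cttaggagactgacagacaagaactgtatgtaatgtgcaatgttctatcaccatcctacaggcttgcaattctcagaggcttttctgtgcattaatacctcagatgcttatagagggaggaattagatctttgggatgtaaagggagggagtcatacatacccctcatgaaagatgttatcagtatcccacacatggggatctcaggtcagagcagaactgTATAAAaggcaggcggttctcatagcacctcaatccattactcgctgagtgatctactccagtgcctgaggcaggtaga

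Among the S100A genes 7 of 11 tested members were called higher and none lower, where 24% and 24.5% of all genes were. By totals alone 3 were called higher and 1 lower (all genes 13.5% and 41.6%). Of the 7, S100a11 and S100a10, partners of the annexins, had the highest mean TPM. S100a10, which pairs with annexin A2 at membranes, had 416, 514 and 511 CPM in wounded epidermis, against 232, 219 and 163 CPM in non-wounded epidermis. S100a11, a partner of annexin A1 and a component of the envelope, had 541, 594 and 549 CPM in wounded epidermis, against 360.4, 296 and 253 CPM in non-wounded epidermis. Neither overlapped between groups. S100a10 rose 2.34-fold (log2 fold change 1.23, SE 0.14, adjusted p = 2.48e-05, edgeR) and S100a11 rose 1.85-fold (log2 fold change 0.89, SE 0.12, adjusted p = 1.08e-04). Of the 31-base stretches of S100a11, 48.9% occur in another gene, chiefly the predicted gene Gm12854. S100a6, or calcyclin, had 227, 199.8 and 179 CPM in wounded epidermis, against 154, 155 and 121 CPM in non-wounded epidermis, and rose slightly (log2 fold change 0.49, SE 0.12, adjusted p = 0.00486). By library totals alone it was 0.17 and not called (adjusted p = 0.256), nor was it called with log2(TPM + 1) (log2 fold change 0.16). S100a13, which assists the release of growth factors that lack a signal peptide, had 8.29, 11.6 and 9.16 CPM in wounded epidermis, against 7.51, 6.25 and 3.78 CPM in non-wounded epidermis. Its call (log2 fold change 0.73, SE 0.25, adjusted p = 0.0291) was lost with library totals alone (log2 fold change 0.40), with upper-quartile factors (0.58) and with log2(TPM + 1) (0.40). It was also lost without the intact tissue of mouse 2 (0.77, adjusted p = 0.0658) or mouse 3 (0.49, adjusted p = 0.0908) and the wounded tissue of mouse 2 (0.57, adjusted p = 0.132) or mouse 3 (0.77, adjusted p = 0.0521).

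S100a8 and S100a9 form calprotectin, an antimicrobial pair made in bulk by neutrophils and also by stressed keratinocytes. S100a9 had 4.404, 3.07 and 3.34 CPM in wounded epidermis, against 0.569, 1.37 and 1.73 CPM in non-wounded epidermis. S100a8 had 1.92, 1.39 and 2.695 CPM in wounded epidermis, against 0.0379, 0.9903 and 0.164 CPM in non-wounded epidermis. Both were low in all libraries, and the intact tissue of mouse 2 held most of the non-wounded S100a8. S100a9 rose 2.95-fold (log2 fold change 1.56, SE 0.38, adjusted p = 0.005205, edgeR). S100a8 was called as well (log2 fold change 2.30, SE 0.79, adjusted p = 0.0371), but not with library totals alone (adjusted p = 0.0568), nor without the wounded tissue of mouse 1, 2 or 3 (adjusted p = 0.0833, 0.0626 and 0.115) or the intact tissue of mouse 3 (adjusted p = 0.0977). Without the intact tissue of mouse 2 its log2 fold change was 4.25. Of 13 neutrophil markers 4 were tested, with Csf3r (2.51) and Cxcr2 (1.41) called higher and Itgam (-0.67) lower on the log2 scale. Their summed level was 13.3 to 16.1 CPM in wounded libraries and 12.99 to 18.5 CPM in non-wounded libraries, and the defining marker Ly6g was at 0 in all 6. The part of neutrophils in the S100a8 and S100a9 values was not tested.

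S100a14, a membrane-associated S100A protein of keratinocytes, had 525, 499 and 497 CPM in wounded epidermis, against 460.4, 474 and 445 CPM in non-wounded epidermis and was not called (log2 fold change 0.14, adjusted p = 0.208, edgeR). S100a16 was at -0.01 (adjusted p = 0.937) and S100a4, known from fibroblasts and migrating cells, at 0.29 (adjusted p = 0.187), while 49.2% of the 31-base stretches of S100a4 also belong to the overlapping gene Gm42674. S100a1, known from muscle, was at 0.47 and not called (adjusted p = 0.0879), and it was called with mouse as a blocking term (adjusted p = 0.0183). Of 9 fibroblast markers 8 were tested and 7 called higher, led by Dpt (4.21), Col1a2 (2.90) and Dcn (3.35) on the log2 scale, and their sum was 498 to 633 CPM in wounded libraries and 341 to 393 CPM in non-wounded libraries. Of 9 skeletal muscle markers all 4 tested were higher (Acta1 3.74, Myh4 3.81, Tnnt3 3.49), with a sum of 9.704 to 12.7 CPM in wounded libraries and 1.02 to 2.795 CPM in non-wounded libraries. Of 6 red blood cell markers all 5 tested were higher (Hbb-bs 6.07, Hbb-bt 5.36, Hba-a2 2.22), with a sum of 97.4 to 165 CPM in wounded libraries and 18.9 to 26.1 CPM in non-wounded libraries. What these cells add to the S100A values was not tested. S100a7a had 15 counts in wounded and 34 in intact tissue, and S100a2 had 14 and 5. S100a5 (0 and 1) and S100a11-ps (3 and 1) were nearly absent, and none of these 4 was tested. Summed over the 15 S100A members the level rose 1.49-fold (log2 fold change 0.57, SE 0.10, adjusted p = 7.33e-04), but the call was lost with library totals alone (log2 fold change 0.25, adjusted p = 0.0588) and with log2(TPM + 1) (0.32, adjusted p = 0.0503). That scaling called 4 S100A members higher, S100a8, S100a9, S100a10 and S100a11, and 1, S100a16, lower.

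The fused S100 genes include profilaggrin (Flg), filaggrin 2 (Flg2), hornerin (Hrnr), repetin (Rptn) and trichohyalin (Tchh), and of 5 tested 1 was called, where 48.5% of all genes were. Flg2 had 6456, 5571 and 4769 CPM in wounded epidermis, against 5065, 5339 and 6476 CPM in non-wounded epidermis. Flg had 471, 467 and 457 CPM in wounded epidermis, against 352, 457 and 474 CPM in non-wounded epidermis. Hrnr had 785, 777 and 672 CPM in wounded epidermis, against 514, 851 and 899 CPM in non-wounded epidermis. All 3 overlapped between groups and differed more between the non-wounded libraries than between groups. Their log2 fold changes were -0.01 for Flg2 (SE 0.13, adjusted p = 0.9701), 0.12 for Flg (SE 0.11, adjusted p = 0.417) and -0.02 for Hrnr (SE 0.19, adjusted p = 0.945) in edgeR. Rptn was at 0.29 (SE 0.51, adjusted p = 0.678) and also not called. With log2(TPM + 1) Flg2 was called lower (-0.53, adjusted p = 0.00447). Counts per TPM of Flg2, divided by the median of that quotient over the library's genes with a mean above 500 counts, were 2.46, 2.47 and 2.22 in wounded and 1.92, 2.02 and 2.21 in non-wounded libraries, so counts and TPM give different ratios between groups for this gene. Summed over the 7 genes the change was 0.01 (SE 0.13, adjusted p = 0.9696), and it was -0.39 and called lower with log2(TPM + 1) (adjusted p = 0.0172). Crnn, or cornulin, with 16 counts in wounded and 9 in intact tissue, and Tchhl1 with 5 and 5 were not tested.

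Tchh, a structural protein of the inner root sheath and the hair medulla, was the exception. It had 32.7, 37.7 and 36.4 CPM in wounded epidermis, against 11.9, 15.2 and 11.2 CPM in non-wounded epidermis. It rose 2.79-fold in edgeR (log2 fold change 1.48, SE 0.14, adjusted p = 5.80e-06) and did not overlap between groups. S100a3, a protein of the hair cuticle, had 2.202, 1.56 and 1.46 CPM in wounded epidermis, against 0.758, 0.762 and 0.7399 CPM in non-wounded epidermis. The lowest wounded S100a3 value was above all non-wounded ones, and the gene was called (log2 fold change 1.20, SE 0.38, adjusted p = 0.0204). That call was lost with library totals alone (adjusted p = 0.06903), with log2(TPM + 1) (adjusted p = 0.232), without the wounded tissue of mouse 1 (1.00, adjusted p = 0.0954) and without the intact tissue of mouse 2 (1.20, adjusted p = 0.0518). Of 11 inner root sheath and hair shaft markers 10 were found and 3 tested: Krt27 (2.60) and Dsg4 (2.42) were called higher and Msx2 (-1.15) lower on the log2 scale. The summed markers were at 8.302 to 10.5 CPM in wounded libraries and 7.69 to 12.7 CPM in non-wounded libraries, and Krt73 was at 0 in all. Whether the share of follicle cells in the libraries bears on Tchh and S100a3 was not tested.

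The genes of the major envelope proteins Lor and Ivl were not called. Lor had 2321, 2085 and 1774 CPM in wounded epidermis, against 1735, 1284 and 1899 CPM in non-wounded epidermis. Ivl had 192, 188 and 157 CPM in wounded epidermis, against 179, 206 and 162 CPM in non-wounded epidermis. Both overlapped between groups, and for Lor the intact tissue of mouse 2 was the lowest library. Lor was not called (log2 fold change 0.33, SE 0.15, adjusted p = 0.0876, edgeR), although it passed with DESeq2 (0.34, adjusted p = 0.0403), with no filter on low counts (adjusted p = 0.01196) and without the intact tissue of mouse 3 (0.44, adjusted p = 0.0354). Ivl was not called either (log2 fold change -0.03, SE 0.11, adjusted p = 0.861), and it was called lower with library totals alone (-0.35, adjusted p = 0.0183) and with log2(TPM + 1) (-0.37, adjusted p = 0.0252). A p that misses the threshold does not show that the levels were equal.

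**Figure D2:**
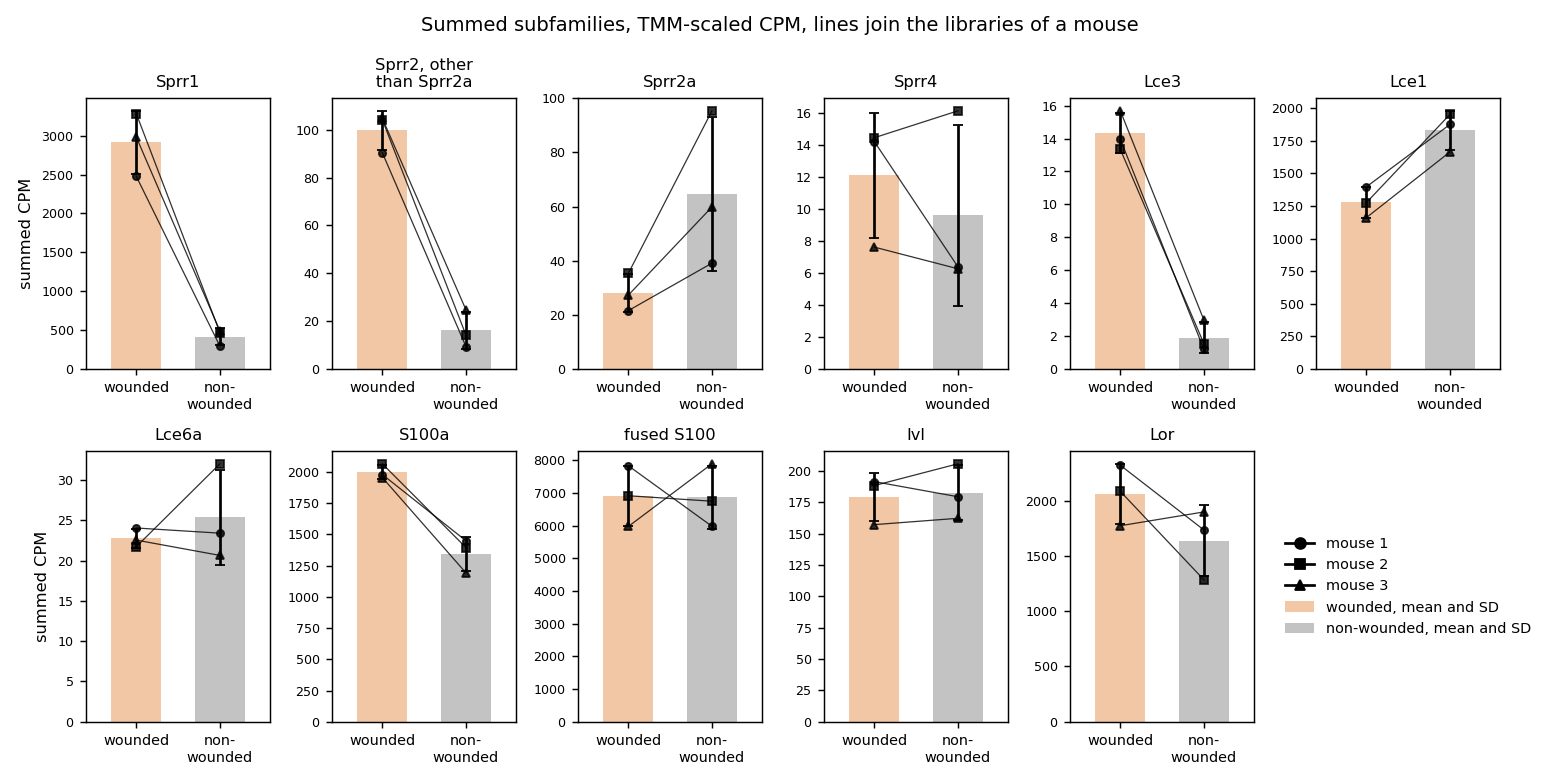
Summed level of each subfamily in TMM-scaled CPM on axes that start at 0, with bars for the mean and SD of 3 wounded (orange) and 3 non-wounded (grey) libraries, and points joined by lines for the libraries of each mouse. Lines of Sprr1, other Sprr2 and Lce3 run steeply down to non-wounded in all 3 mice (means 2915 and 414 CPM for Sprr1), those of Lce1 and Sprr2a run up, and those of fused S100, Ivl and Lor cross.

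In some stretches, which are runs of related genes, neighbours had the same call, and elsewhere the calls were mixed. Over all genes 24% were called higher and 24.5% lower. Along the Lce1 array Lce1f rose between Lce1e, which fell, and Lce1g, which was not called. In the S100A array S100a13 and S100a3 rose, while S100a14 and S100a16 between them were not called. Tchh rose beside Rptn, which was not called. Along chromosome 3 in GRCm38, Lor (chr3:92080271-92083142) is followed by the Sprr2a copies (chr3:92215799-92221911 for Sprr2a1 and chr3:92285417-92291405 for Sprr2a3), none of which rose. The stretch after them, between Sprr2d (chr3:92339140-92340873) and Sprr1a (chr3:92483952-92485895), holds Sprr2d, Sprr2e, Sprr2f, Sprr2g, Sprr2h, Sprr2i, Sprr2j-ps, Sprr2k, Sprr1b, Sprr3 and Sprr1a, and each of its 9 tested members rose. Its neighbours on the far side, Sprr4 (chr3:92500263-92500493) and Ivl (chr3:92570902-92573735), were not called. Lce3 genes lie inside the Lce1 array, between Lce1l (chr3:92849949-92851286) and Lce1m (chr3:93017810-93019060), both of which fell while Lce3c (chr3:92944486-92945733), Lce3d (chr3:92957390-92958505) and Lce3e (chr3:92967061-92968281) between them rose. S100a10 (chr3:93555080-93564643) and S100a11 (chr3:93520488-93526287) stand at the end of the complex beyond the fused S100 genes, apart from the main S100A array at its start. This order was described after the values were seen, and it was not tested.

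**Figure D3:**
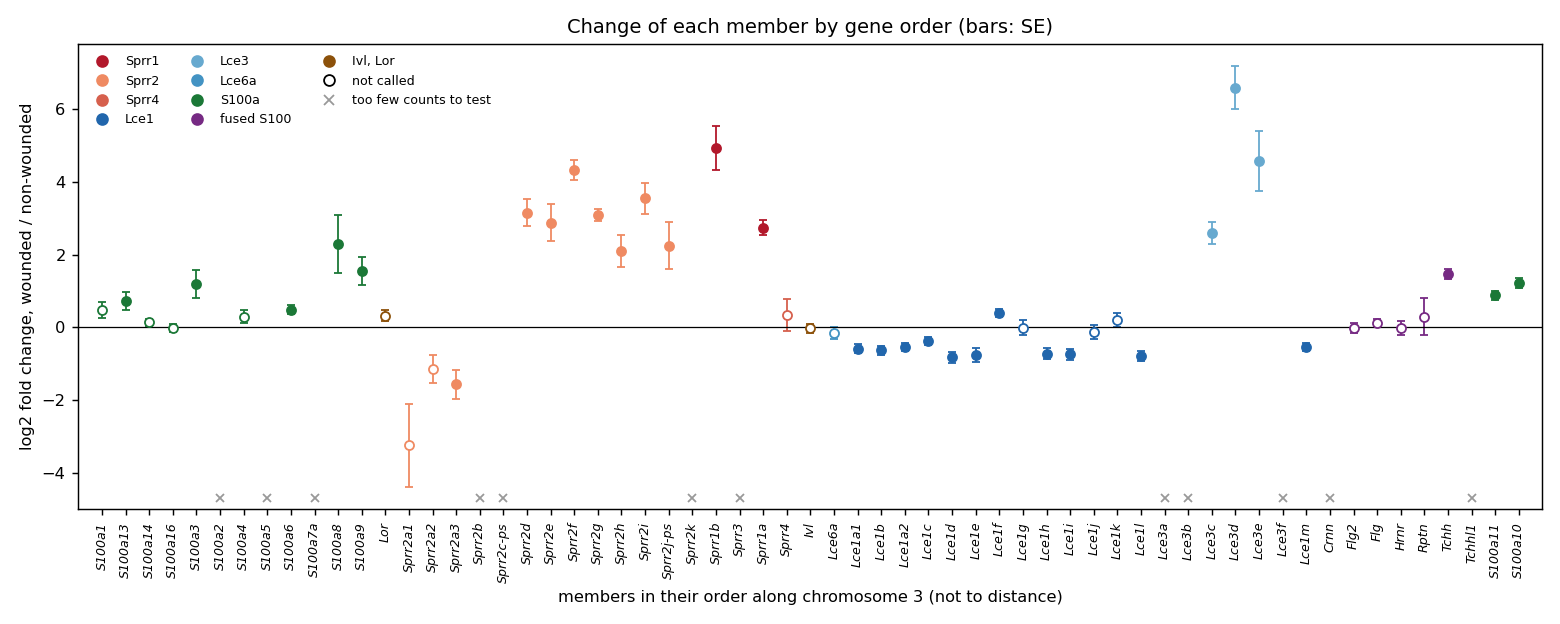
Log2 fold change of each tested member (wounded over non-wounded, edgeR with TMM) in its order along chromosome 3, coloured by subfamily, with bars for the SE, open circles for members not called and crosses for members with too few counts. Sprr2d to Sprr1a and Lce3c to Lce3e form raised blocks beside Sprr2a, Lce1 and Ivl, and the heights of Lce3d, Lce3e and Sprr2a1, which have libraries at 0 counts, depend on the prior count of the fit.

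As a share of all counts the complex hardly differed, at 1.38 ± 0.104% in wounded libraries and 1.39 ± 0.1005% in non-wounded libraries (SD, n = 3 each). By TPM its share was 1.61 ± 0.0437% in wounded libraries and 1.36 ± 0.0275% in non-wounded libraries, higher in wounded tissue of all 3 mice. The make-up within it shifted. Sprr1 took 0.25998 ± 0.0349% in wounded libraries and 0.0462 ± 0.0119% in non-wounded libraries of counts, and Lce1 took 0.114 ± 0.0108% in wounded libraries and 0.205 ± 0.0168% in non-wounded libraries. With 3 libraries a side, 0.1 is the smallest two-sided p of an exact permutation test; both of these shares reached it and the share of all members by counts did not (p = 1). Ratios within a library need no scaling between libraries, and 8 were computed after the values were seen. The Sprr1 to Lce1 ratio was 1.77, 2.58 and 2.57 in wounded libraries, against 0.155, 0.238 and 0.292 in non-wounded libraries, a 10.1-fold change of the means. The Lce3 to Lce1 ratio was 0.00999, 0.0105 and 0.0135 in wounded libraries, against 0.000626, 0.0007801 and 0.00178 in non-wounded libraries, 10.7-fold. The ratio of the other Sprr2 genes to Sprr2a was 4.21, 2.96 and 3.85 in wounded libraries, against 0.239, 0.148 and 0.413 in non-wounded libraries, 13.8-fold, so that Sprr2a was the larger part in intact tissue and the smaller part after wounding in every mouse. The ratio of Lce1 to the fused S100 genes was 0.178, 0.184 and 0.194 in wounded libraries, against 0.314, 0.2895 and 0.211 in non-wounded libraries. These 4 ratios did not overlap between groups and reached the smallest two-sided exact permutation p of 0.1 (0.114 adjusted over the 8), whereas the ratio of Lor to Ivl overlapped (p = 0.3000000). Over 16079 genes, 58.5% had groups that did not overlap in CPM.

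**Figure D4:**
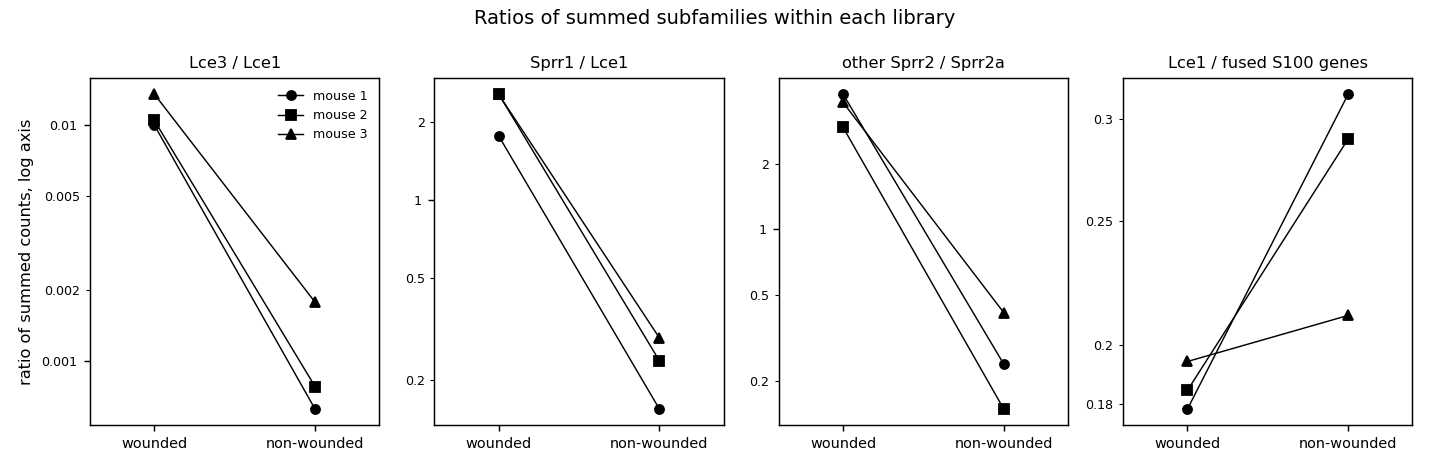
Ratio of summed counts of one subfamily to another within each library, on log axes, with wounded on the left and non-wounded on the right and a line for each of the 3 mice. The lines of Lce3 to Lce1, Sprr1 to Lce1 and other Sprr2 to Sprr2a run high to low in all 3 mice, and those of Lce1 to the fused S100 genes run the other way.

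Genes outside the complex that build or regulate the envelope were taken from 5 lists, against a background of 24% of all genes called higher and 24.5% lower by TMM, and 13.5% and 41.6% by totals alone. Of 12 cross-linking enzymes and other envelope proteins 7 rose and 1 fell in edgeR (median log2 fold change 0.45, against -0.03 over all genes). The protease inhibitor cystatin B (Cstb) was at 299 ± 28.3 CPM in wounded epidermis and 118 ± 21.9 CPM in non-wounded epidermis (SD, n = 3 each), log2 fold change 1.35 (adjusted p = 8.47e-06). Transglutaminase 1 (Tgm1), the main cross-linking enzyme of the envelope, was at 307 ± 15.01 CPM in wounded epidermis and 146 ± 18.97 CPM in non-wounded epidermis, log2 fold change 1.07 (adjusted p = 9.14e-06). Corneodesmosin (Cdsn), which holds corneocytes together, was at 0.70 (adjusted p = 2.30e-04). The fall was that of transglutaminase 3 (Tgm3), with 14.4, 7.15 and 4.74 CPM in wounded epidermis, against 84.97, 60.6 and 104 CPM in non-wounded epidermis, log2 fold change -3.24 (SE 0.47, adjusted p = 0.00381). Totals alone called 3 of the 12 higher and 1 lower. Of 12 filaggrin-processing and corneocyte protease genes 10 were tested and 5 rose (median 0.35), with Furin, the proprotein convertase, at 1.81 (adjusted p = 1.98e-07), matriptase (St14) at 0.95 (adjusted p = 7.79e-06) and the profilaggrin protease Asprv1 at 0.86 (adjusted p = 8.10e-05). Totals alone called 4 higher and 4 lower.

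Of 23 transcription factors tied to the complex or to keratinocyte differentiation, 17 rose and 2 fell in edgeR (median log2 fold change 0.51). Ovol1, a repressor of basal genes, was at 1.94 (adjusted p = 9.38e-08), Cebpb at 1.74 (adjusted p = 2.07e-07) and Cebpa, which acts beside it in suprabasal cells, at 1.62 (adjusted p = 3.33e-07). Grhl3 was at 2.27 and Klf4 at 0.85, both barrier regulators, and both were called. The 2 that fell were Trp63, the p63 factor of basal cells (-0.47, adjusted p = 0.00703), and Pou2f3 (-1.28, adjusted p = 2.49e-04). Totals alone called 11 higher and 4 lower. Of 11 partners and receptors of S100 proteins 6 rose and none fell (median 0.57), led by Anxa11 (1.54, adjusted p = 1.46e-06), Ahnak (1.19, adjusted p = 5.93e-06) and Anxa1 (0.68, adjusted p = 2.66e-04). Anxa2, the partner of S100a10, was at 0.57 (adjusted p = 6.48e-04). The counts were 5 and 3 by totals alone. Of 11 further genes of the locus and S100 genes elsewhere 6 were tested (median 0.23), and Pglyrp3, which binds bacterial peptidoglycan, was at 1.94 (adjusted p = 4.33e-07), Prr9 at 1.90 (adjusted p = 6.83e-04) and Kprp at 0.48 (adjusted p = 0.00784). Pglyrp4, the neighbour of Pglyrp3 in function, was called lower (-0.29, adjusted p = 0.0308). By totals alone 2 of these were higher and 2 lower.

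Markers of other resident cells were counted as well. Of 5 Langerhans cell markers 2 were called higher (Cd207 1.83, Epcam 1.58 on the log2 scale; H2-Aa at 0.31 was not called), or 4 with mouse as a blocking term, with a sum of 1706 to 2015 CPM in wounded libraries and 1046 to 1152 CPM in non-wounded libraries. Of 6 dendritic epidermal T cell markers 5 were found and 4 called lower (Cd7 -0.66, Cd3g -0.85, Thy1 -0.35), with a sum of 97.8 to 118 CPM in wounded libraries and 129 to 163 CPM in non-wounded libraries. Of 10 macrophage and monocyte markers 7 were tested, 2 higher and 2 lower (Csf1r -1.20, Adgre1 -0.85, Lyz2 1.67), with a sum of 52.5 to 74.01 CPM in wounded libraries and 97.3 to 111 CPM in non-wounded libraries. Of 6 melanocyte markers 4 were tested and Pmel was called higher (0.77), with Dct at 1.08 called in addition with the block, and a sum of 6.84 to 8.79 CPM in wounded libraries and 3.53 to 5.48 CPM in non-wounded libraries. Of 5 endothelial markers only Pecam1 was tested (0.15, not called), with a sum of 2.23 to 2.72 CPM in wounded libraries and 1.45 to 2.43 CPM in non-wounded libraries. Their part in the values of the complex was not tested.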

How the data were processed

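The authors quantified reads with Salmon on genome build mm10 and compared expression with edgeR, per the submitters' processing notes and a methods sheet they deposited. No source used here gives versions, annotation release or strand setting. The deposited tables hold 1 row per gene symbol, with estimated counts in the first and TPM in the second. Between 30.3% and 32.02% of the authors' estimated counts per library were more than 1e-06 from a whole number, and they were rounded. Salmon divides reads shared by near-identical genes, so 31-base stretches shared between GENCODE transcripts were counted.

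Genes kept by filterByExpr (16079) were TMM-scaled, and edgeR 4.0.16 (R 4.3.3) ran its robust quasi-likelihood test on the 3 wounded against the 3 non-wounded libraries without a mouse term, with Benjamini-Hochberg adjustment over all genes and a call at 0.05. SE is the absolute log2 fold change over the square root of F. Subfamily sums were fitted with all other genes. On simulated counts for this comparison and these 16079 genes, 42%, 74%, 96% and 96% of 50 genes each changed 1.5-, 2-, 4- and 8-fold were recovered, and 16 unchanged genes were called. The changed genes had a mean of at least 1 CPM and rose or fell in equal numbers. In the data 48.5% of all genes were called, far more than were changed in the simulation. The simulated rates therefore need not hold for the data, nor for genes under 1 CPM. Alternatives were other scalings, filters, DESeq2 1.42.0, limma 3.58.1 on log2(TPM + 1) and log2(TPM + 0.1), the mouse as a block, and each library left out. Both libraries of a mouse share its number in the labels. Their deviations from the group means correlated at 0.152, 0.0409 and 0.167 in mice 1, 2 and 3. For wounded and non-wounded libraries of different mice the correlations ran from -0.145 to 0.00587. Between replicates the chi-square per gene was 13.7 to 37.1, above counting noise, so none were merged.

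Members and lists were chosen with earlier results of these data known. Named are called members with a mean of at least 1 CPM, the 3 members of each subfamily with the highest TPM, and the 3 genes with the smallest p of each of 5 pathway and 12 marker lists. Others named were chosen after their values were seen. Counting intervals (95%) and floors (3 counts) cover counting error only.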

Additional observations from a re-analysis of the deposited data

How the results depend on the processing

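The members called numbered 16 to 23 higher and 8 to 16 lower over the 14 alternatives, and the summed Sprr1, Lce1, Lce3 and other Sprr2 genes kept their direction and call under all 14 (Sprr1 2.49 to 2.94, Lce3 2.56 to 3.40, Lce1 -0.86 to -0.46 and other Sprr2 2.32 to 3.08 on the log2 scale). With library totals alone 2164 genes were called higher and 6695 lower, and of the pathway lists 25 and 14. The pathway lists gave 25 and 13 with log2(TPM + 1) and with log2(TPM + 0.1), where 1904 and 1895 genes were called higher, and upper-quartile factors gave 8 lower. With library totals alone Lce6a (-0.48, adjusted p = 0.0205) and Ivl (-0.35, adjusted p = 0.0182) became called and the summed S100A genes (0.25) lost their call, as they did with log2(TPM + 1) (0.32). Ivl was called at -0.37 with log2(TPM + 1) and -0.37 with log2(TPM + 0.1). The summed fused S100 genes turned to -0.39 and -0.39 under the same pair, where counts per TPM of Flg2 differed between libraries. Lor was called with DESeq2 (0.35) and with no filter (0.31), and summed Sprr2a lost its call with no filter (-1.23); the cause was not tested. The log2 ratio of the share of all members was 0.24 by TPM, against -0.0017 by counts.

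The mouse as a replicate block, taken because both libraries of a number come from 1 animal, gave 0.73 for the summed Sprr2 genes (adjusted p = 0.0102) and called Sprr2a2 and S100a1. Among the subfamily sums it changed no other call. Leaving out each library in turn moved the summed Sprr2 genes over 0.39 to 0.94 (adjusted p 0.0161 to 0.274), Sprr4 over 0.10 to 0.93 (0.02404 to 0.884), Lor over 0.18 to 0.44 (0.0349 to 0.305) and Sprr2a over -1.48 to -0.82 (0.00471 to 0.161). With 2 libraries left in a group the test assumes that they vary like the other group. Limits of depth show in Lce3d, Lce3e, Sprr2k and Sprr3, whose non-wounded libraries hold 0 to 3 counts in all, and in the 13 untested members. Near-identical copies, overlapping genes and an unstated strand setting limit single Sprr2a, Lce1, Lce3 and S100a4 values, and 3 mice limit every test.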
